A study of Mus musculus with 10 samples.

Results

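Collagen genes were followed in pancreatic islets of 5 female mice heterozygous for Men1 and 5 female wildtype littermates, all aged 5 weeks. The members were all probe sets of the array whose annotated gene symbol is Col, a number, a and a number. This rule found 82 probe sets for 42 genes among 45037 probe sets, of which 11 genes encode fibrillar collagens, 8 encode basement membrane collagens (types IV, XV and XVIII) and 23 encode other types. The mice of both genotypes carried the strain label C57 on a 129 background, and the sources used here do not describe the Men1 allele itself. Men1 encodes menin, a tumour suppressor, and mice that carry a single intact copy develop islet tumours later in life. About 100 islets of each mouse were pooled to 1 RNA sample, amplified over 2 cycles and hybridised to 1 array, so that replicates are separate mice. The question put to the collagen genes was whether their transcripts differ in heterozygous islets at this young age. All levels are log2 values of 1 probe set, all differences are heterozygous minus wildtype on that scale, and a difference of -1 is a halving. Levels of different probe sets cannot be set against each other, because each has its own probes.

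Collagens are extracellular proteins whose chains wind around one another into a helix built on a repeat with glycine at every turn. Fibrillar collagens (types I, II, III, V, XI, XXIV and XXVII) form the fibres of connective tissue. In soft tissue, types I, III and V are made mainly by fibroblasts and mural cells. Type IV collagen forms the sheet-like network of basement membranes, and types XV and XVIII are joined to it. Mouse islets lie in a thin capsule and are threaded by capillaries whose basement membrane is the surface that beta cells contact, while beta cells themselves make little collagen.

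The start regions of 4 members are shown. Col3a1 and Col1a2 had the widest differences between genotypes when each gene is read by its brightest probe set, though no collagen probe set was called. Col4a1 and Col4a2 were taken because they lie head to head and start within the same stretch of chromosome 8. Each window runs from 250 bases before to 50 bases after an annotated start, as given by RefSeq for GRCm38.p6, and such windows were found for 33 of the 42 members. Among the 4, the Col3a1 window is chr1:45311288-45311587 on the plus strand, and the Col1a2 window is chr6:4505368-4505667 on the plus strand. Capitals mark matches, on either strand, to the letters TATAAA of a classic start box, to the letters CCAAT of another common promoter box, and to the letters GGGCGG of a GC box.
Col3a1: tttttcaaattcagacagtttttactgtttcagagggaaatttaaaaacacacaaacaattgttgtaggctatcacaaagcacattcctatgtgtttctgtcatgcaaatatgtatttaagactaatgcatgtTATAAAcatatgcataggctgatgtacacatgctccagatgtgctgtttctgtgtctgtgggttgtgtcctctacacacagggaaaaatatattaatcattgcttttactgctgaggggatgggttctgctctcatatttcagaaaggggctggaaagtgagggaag
Col1a2: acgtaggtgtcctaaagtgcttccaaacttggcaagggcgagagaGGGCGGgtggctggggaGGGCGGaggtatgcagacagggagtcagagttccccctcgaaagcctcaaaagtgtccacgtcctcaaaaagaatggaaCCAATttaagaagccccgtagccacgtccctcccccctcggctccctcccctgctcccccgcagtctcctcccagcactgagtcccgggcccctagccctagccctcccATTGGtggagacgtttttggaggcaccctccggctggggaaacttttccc
The Col3a1 window held 1 match, a TATAAA that begins 117 bases before the start. The Col1a2 window held 2 matches to GGGCGG, 205 and 188 bases before the start, a CCAAT 109 bases before it and a CCAAT on the other strand just after it. None of these matches overlapped another. The Col4a1 window is chr8:11312777-11313076 on the minus strand, and the Col4a2 window is chr8:11312555-11312854 on the plus strand. Capitals mark the 78 bases that both windows share, read on opposite strands.
Col4a1: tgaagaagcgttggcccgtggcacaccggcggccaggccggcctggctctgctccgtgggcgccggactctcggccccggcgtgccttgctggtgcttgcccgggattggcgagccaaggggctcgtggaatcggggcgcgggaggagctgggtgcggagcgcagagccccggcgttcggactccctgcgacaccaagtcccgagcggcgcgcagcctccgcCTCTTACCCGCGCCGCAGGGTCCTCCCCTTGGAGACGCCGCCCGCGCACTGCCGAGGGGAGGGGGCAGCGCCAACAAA
Col4a2: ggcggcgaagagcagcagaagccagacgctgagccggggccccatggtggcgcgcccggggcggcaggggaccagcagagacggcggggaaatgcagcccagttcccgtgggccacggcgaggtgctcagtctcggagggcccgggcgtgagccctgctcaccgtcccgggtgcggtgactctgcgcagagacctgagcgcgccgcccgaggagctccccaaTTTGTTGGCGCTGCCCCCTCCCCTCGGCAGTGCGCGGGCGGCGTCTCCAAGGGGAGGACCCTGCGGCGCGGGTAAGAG
Searched on both strands, TATAAA stood in 5 of 36 windows of members (13.9%) and in 13.6% of all 32851 windows, and CCAAT in 13 of 36 (36.1%) and in 37.4%. GGGCGG stood in 22 of 36 windows of members (61.1%) and in 35.7% of all windows. These are descriptions of letters in the windows and not of binding. The genome holds 2 more pairs of neighbouring type IV genes, Col4a4 with Col4a3 on chromosome 1 and Col4a5 with Col4a6 on chromosome X. In each of these 2 pairs 1 gene was measured above the floor (Col4a4 and Col4a5), and its partner was not.

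The deposited values are log2 values made with GCRMA, and their medians per array ranged from 3.28 to 3.40. A probe set was compared if it lay above a floor of 4 on at least 5 of the 10 arrays, which kept 18567 probe sets for 10538 genes. Men1 stood at 6.82, 6.09, 6.56, 6.44 and 6.16 in heterozygous mice 1 to 5 and at 7.21, 7.18, 6.83, 6.96 and 6.25 in wildtype mice 1 to 5. Its difference was -0.47 (SE 0.20), with overlapping groups (exact two-sided permutation p = 0.0635), and whether its probes lie in the altered part of the gene is not known here. Islet genes were high in both genotypes, with a mean over 9 measured beta and alpha cell genes of 12.6 to 13.2 in heterozygous mice and 12.5 to 13.2 in wildtype mice. Genes of acinar cells, which surround islets, were also high, so that the samples hold more than endocrine cells. Their mean over 8 genes was 14.3 to 15.01 in heterozygous mice and 14.7 to 14.98 in wildtype mice. These 8 are enzyme genes and the transcription factor genes Ptf1a and Rbpjl. Heterozygous mice 2 and 5 had the highest means of 6 lymphocyte genes, 7.13 and 6.77, against 5.14 to 5.30 in the other heterozygous mice and 5.33 to 5.82 in wildtype mice. On 3′ minus 5′ control probe sets, which track RNA shortening, the actin difference was 2.97 to 3.65 in heterozygous and 2.96 to 3.41 in wildtype mice, with the 3.65 in heterozygous mouse 4. The Gapdh difference was 3.24 to 3.70 in heterozygous and 3.32 to 3.46 in wildtype mice, with the 3.70 in heterozygous mouse 3 and 3.54 in mouse 4.

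Of the 42 collagen genes, 23 were kept through 33 probe sets, and 21 of these genes lay above the floor on all 10 arrays. They were 8 fibrillar, 6 basement membrane and 9 other genes. The other 19 genes, through 37 probe sets, lay between 1.86 and 4.02. Among them were the fibrillar genes Col11a1, Col11a2 and Col24a1, the type IV genes Col4a3 and Col4a6, and 14 others. These 14 were Col10a1, which belongs to growth plate cartilage, the type IX genes Col9a1, Col9a2 and Col9a3 of cartilage, Col17a1 of skin anchoring complexes, Col12a1, Col19a1 and Col22a1, which bind to fibrils, the transmembrane types Col23a1 and Col25a1, and Col26a1, Col6a4, Col6a5 and Col8a2. Just below the floor lay Col9a2, with a mean of 3.84, and just above it Col2a1 at 4.10 and Col20a1 at 4.14. A value below the floor says only that this array did not measure the gene above background.

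The fibrillar genes of connective tissue lay lower in 4 of the 5 heterozygous mice. Col3a1, the chain of type III collagen in vessel walls and soft tissue, stood at 11.73, 11.86, 11.41, 13.24 and 12.06 in heterozygous mice 1 to 5 and at 13.06, 13.56, 13.02, 13.44 and 12.60 in wildtype mice 1 to 5. Heterozygous mice 1, 2, 3 and 5 lay below every wildtype mouse, and mouse 4 lay above the wildtype mean. The means were 12.06 ± 0.70 and 13.14 ± 0.38 (SD, n = 5 each), a difference of -1.08 (SE 0.31), which puts heterozygous islets at 47.4% of wildtype (95% interval 29.4% to 76.7%). Col1a2, the second chain of type I collagen, stood at 10.60, 11.10, 10.59, 12.62 and 11.20 in heterozygous mice and at 12.01, 12.58, 11.91, 12.83 and 11.83 in wildtype mice. The same 4 heterozygous mice were below all wildtype mice, and the difference was -1.01 (SE 0.37), or 49.8% (28.3% to 87.4%). Col1a1, which supplies the other chain of type I collagen, stood at 7.26, 6.72, 6.81, 8.93 and 7.01 in heterozygous mice and at 7.45, 8.20, 7.58, 8.68 and 7.46 in wildtype mice. The group means differed by -0.53 (SE 0.41), with heterozygous mouse 4 the highest of all 10. This difference was -0.93 without heterozygous mouse 4 and -0.33 without wildtype mouse 4. On this probe set heterozygous mice 1, 2, 3 and 5 lay below every wildtype mouse. A dimmer Col1a1 probe set differed by -0.41 (SE 0.35), with only 1 heterozygous mouse below every wildtype mouse. Fewer cells of a type and less RNA per cell cannot be told apart in such bulk samples.

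Type V collagen, which sits inside type I fibres and sets their width, followed the same pattern. Col5a2 stood at 8.88, 9.18, 8.95, 10.22 and 9.28 in heterozygous mice and at 9.48, 10.27, 10.03, 10.29 and 9.76 in wildtype mice, a difference of -0.66 (SE 0.26). Col5a1 stood at 6.53, 6.86, 6.41, 8.24 and 7.03 in heterozygous mice and at 7.30, 7.82, 7.57, 8.26 and 7.26 in wildtype mice, a difference of -0.63 (SE 0.33). In both genes heterozygous mice 1, 2, 3 and 5 lay below every wildtype mouse. A dimmer Col5a1 probe set, with the same 4 mice below every wildtype mouse, averaged 6.51 in heterozygous mice and 7.62 in wildtype mice, a wider difference of -1.11 (SE 0.39). Col5a3 was closer to the floor, at 4.70, 5.10, 4.78, 5.29 and 4.87 in heterozygous mice and at 5.06, 5.90, 5.38, 5.43 and 5.24 in wildtype mice, a difference of -0.46 (SE 0.17). All 5 heterozygous mice lay below the wildtype mean for Col5a3, and 3 lay below every wildtype mouse. The remaining fibrillar genes showed no such separation. Col2a1, the cartilage collagen, differed by -0.033 (95% interval -0.41 to 0.35) and Col27a1 by 0.0064 (-0.17 to 0.19).

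**Figure D1:**
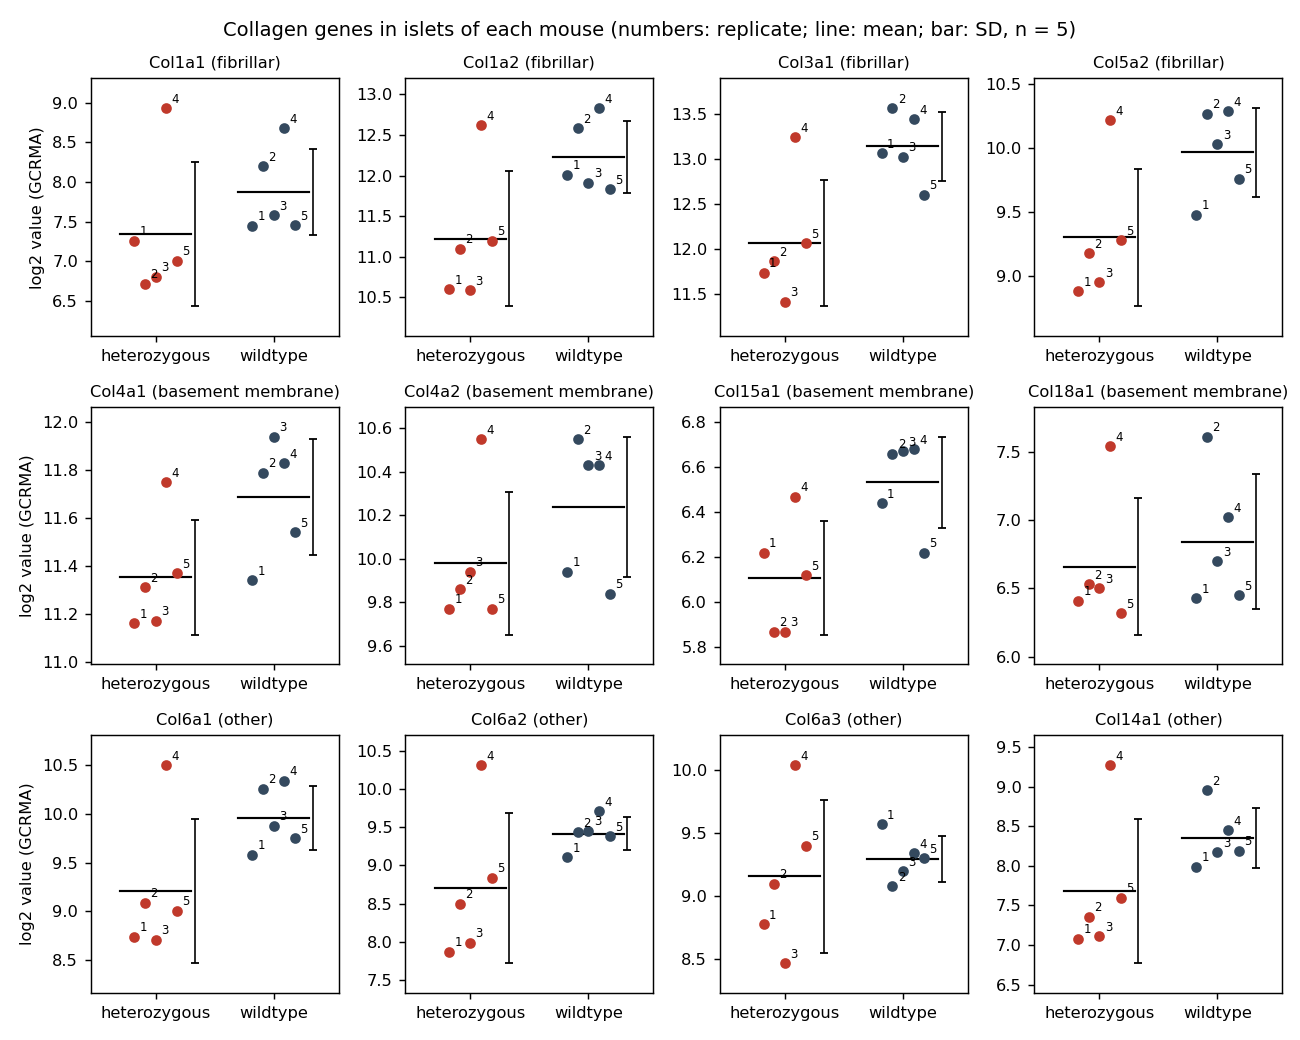
Each panel plots 1 collagen gene, with the log2 value of its probe set on the y axis for the 5 heterozygous mice (left, red) and the 5 wildtype mice (right, dark), numbered by replicate, with the mean as a line and the SD as a bar. For Col3a1, heterozygous mice 1, 2, 3 and 5 sit between 11.41 and 12.06, below the lowest wildtype mouse at 12.60, and heterozygous mouse 4 sits at 13.24.

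All 6 basement membrane collagens lay lower in heterozygous islets, by differences of -0.48 to -0.18. Col4a1, the chain that enters the common type IV network in pairs, stood at 11.16, 11.31, 11.17, 11.75 and 11.37 in heterozygous mice and at 11.34, 11.79, 11.94, 11.83 and 11.54 in wildtype mice. The difference was -0.34 (SE 0.15), or 79.3% of wildtype (63.1% to 99.5%), and 3 heterozygous mice lay below every wildtype mouse. A dimmer Col4a1 probe set was the 1 collagen probe set whose groups did not overlap, at 8.77 to 9.003 in heterozygous mice and 9.006 to 9.29 in wildtype mice, so that the groups almost touched (-0.28, SE 0.096). Such separation was found in 1 of 33 collagen probe sets and, in the same direction, in 0.172% of all probe sets, while 0 collagen probe sets and 0.528% of all probe sets separated with heterozygous islets higher.

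Col4a2, the partner chain of Col4a1, stood at 9.77, 9.86, 9.94, 10.55 and 9.77 in heterozygous mice and at 9.94, 10.55, 10.43, 10.43 and 9.84 in wildtype mice. Its values fell into 2 ranges, 9.77 to 9.94 in 6 mice (4 heterozygous and 2 wildtype) and 10.43 to 10.55 in 4 mice (heterozygous mouse 4 and wildtype mice 2, 3 and 4), and the group difference was -0.26 (SE 0.19). The same 4 mice were also the 4 highest for Col4a1, at 11.75 to 11.94 against 11.16 to 11.54 in the other 6. Because of this split no correlation over all 10 mice is given for the pair, and the 6 mice of the lower range span too little of Col4a2 to describe one within it. Col15a1, whose product bridges basement membranes and fibres, stood at 6.22, 5.87, 5.87, 6.47 and 6.12 in heterozygous mice and at 6.44, 6.66, 6.67, 6.68 and 6.22 in wildtype mice. Its difference was -0.42 (SE 0.14), or 74.6% (60.1% to 92.6%), and all 5 heterozygous mice lay below the wildtype mean.

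Col18a1, whose C-terminal fragment is endostatin, stood at 6.41, 6.53, 6.5, 7.54 and 6.32 in heterozygous mice and at 6.43, 7.61, 6.70, 7.02 and 6.45 in wildtype mice. The groups overlapped broadly, with a difference of -0.18 (SE 0.28), which became 0.011 without wildtype mouse 2. Another Col18a1 probe set, dimmer on average, averaged 5.55 in heterozygous mice and 6.34 in wildtype mice, a difference of -0.79 (SE 0.38). The gene has 2 annotated start windows, and the sources used here do not say which of its transcripts each probe set reads. Col4a5, a chain of the type IV network of kidney, lens and smooth muscle, stood at 6.30, 6.66, 6.53, 8.36 and 6.93 in heterozygous mice and at 6.70, 8.22, 7.24, 7.73 and 7.29 in wildtype mice (-0.48, SE 0.39). Col4a4 stood at 4.88, 4.85, 4.93, 5.39 and 4.80 in heterozygous mice and at 4.88, 5.67, 5.06, 5.74 and 4.90 in wildtype mice (-0.28, SE 0.20). In both genes heterozygous mouse 4 was above the wildtype mean and the other 4 heterozygous mice below it. The difference of Col4a5 was -0.28 without wildtype mouse 2 and -0.32 without heterozygous mouse 1, and that of Col4a4 was -0.18 without wildtype mouse 2 and -0.16 without wildtype mouse 4.

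Among the other types, type VI collagen forms beaded filaments around cells from 3 different chains. Col6a1 stood at 8.74, 9.09, 8.71, 10.50 and 9.01 in heterozygous mice and at 9.58, 10.26, 9.88, 10.34 and 9.75 in wildtype mice (-0.75, SE 0.32; 59.5% of wildtype, 36.6% to 96.7%). Col6a2 stood at 7.87, 8.50, 7.99, 10.31 and 8.84 in heterozygous mice and at 9.11, 9.43, 9.45, 9.71 and 9.38 in wildtype mice (-0.71, SE 0.39). For both chains heterozygous mice 1, 2, 3 and 5 lay below every wildtype mouse, and mouse 4 lay above every wildtype mouse. Col6a3, the largest of these chains, stood at 8.78, 9.10, 8.47, 10.04 and 9.40 in heterozygous mice and at 9.57, 9.08, 9.20, 9.34 and 9.30 in wildtype mice, and its difference was -0.14 (SE 0.25). The log2 ratio of Col6a3 to Col6a1 within an array has no meaning as a level, and it was higher in heterozygous than in wildtype mice by 0.61 (SE 0.25; exact two-sided permutation p = 0.0476). Col6a3 to Col6a1 was 1 of 3 such ratios; the ratios, and the values per mouse of Col6a3, were chosen after the values were seen. The ratio of Col1a1 to Col1a2 differed by 0.48 (SE 0.20; exact permutation p = 0.0714), and that of Col4a1 to Col3a1 by 0.74 (SE 0.26; exact permutation p = 0.0317). After adjustment over the 3 ratios each exact permutation p was 0.0714, so no unequal change between chains was called.

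Collagens that attach to the surface of fibrils were also measured. Col14a1 stood at 7.08, 7.36, 7.11, 9.27 and 7.60 in heterozygous mice and at 7.99, 8.95, 8.17, 8.45 and 8.19 in wildtype mice (-0.66, SE 0.39). Col16a1 stood at 7.21, 6.68, 7.17, 7.61 and 6.90 in heterozygous mice and at 7.26, 8.19, 7.30, 8.10 and 7.60 in wildtype mice (-0.57, SE 0.23; 67.2% of wildtype). In both genes heterozygous mice 1, 2, 3 and 5 lay below every wildtype mouse, and for Col16a1 mouse 4 also lay below the wildtype mean. Col20a1, near the floor, stood at 4.02, 4.03, 3.83, 4.43 and 3.96 in heterozygous mice and at 4.05, 4.0, 4.83, 4.02 and 4.23 in wildtype mice (-0.17, SE 0.17), and its difference was -0.023 without wildtype mouse 3 and -0.27 without heterozygous mouse 4.

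Col7a1, which forms anchoring fibrils beneath epithelia, had another pattern, at 6.33, 7.31, 6.81, 6.21 and 4.68 in heterozygous mice and at 6.62, 6.95, 6.52, 6.76 and 6.44 in wildtype mice. Its difference of -0.39 (SE 0.39) rested on heterozygous mouse 5 and was 0.0093 without it. Col8a1, a network collagen of vessels, ranged from 4.09 to 5.03 in heterozygous mice and from 4.09 to 5.23 in wildtype mice (-0.16, SE 0.28). Col13a1, a transmembrane collagen, ranged from 6.15 to 7.54 in heterozygous mice and from 6.62 to 7.09 in wildtype mice (0.039, SE 0.22).

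No collagen gene passed the test across the array. With limma, 0 of 33 collagen probe sets and 0 of all 18567 probe sets (0%) reached an adjusted p of 0.05, and the adjusted p of Col3a1 was 0.9999. Of the 23 genes kept, 21 lay lower in heterozygous islets and 2 higher, where 45.6% of all 10538 genes tested lay lower. The median difference was -0.58 over 8 fibrillar, -0.31 over 6 basement membrane and -0.39 over 9 other genes, beside 0.014 over all genes tested. At an unadjusted p under 0.05, 8 of 23 collagen genes lay lower, namely Col3a1, Col1a2, Col5a2, Col5a3, Col4a1, Col15a1, Col6a1 and Col16a1, against 1.86% of all genes. Over probe sets these counts were 12 of 33 and 1.52%, and in the higher direction 0 of 33 and 2.57%. A difference of -0.5 or lower stood in 9 of 23 collagen genes and in 1.91% of all genes. In 0 of 23 genes did the groups separate fully on the brightest probe set, against 0.19% of all genes lower. Exact two-sided permutation tests of single genes, whose smallest possible p is 0.00794, were not adjusted over the 23 genes. The exact permutation p was 0.0317 for Col3a1 and Col15a1, 0.0397 for Col5a3 and 0.0476 for Col1a2, Col5a2 and Col16a1. For Col4a1 and Col6a1, also among the 8 genes named, the exact permutation p was 0.0714 and 0.0794. Collagen genes vary together, so that such counts hold fewer than 23 independent measurements. Of 10 genes with 2 kept probe sets, 9 had the same direction in both, and the exception was Col27a1, at -0.078 and 0.0064.

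**Figure D2:**
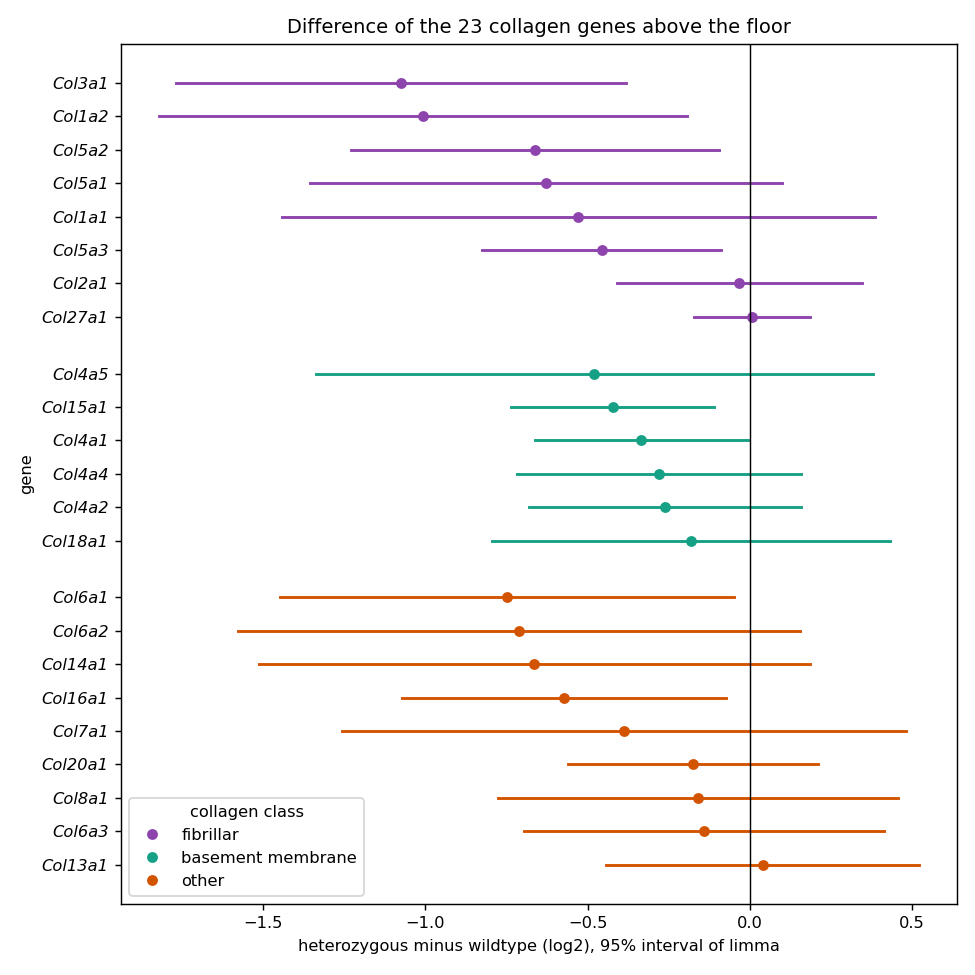
The x axis gives the difference of heterozygous minus wildtype islets on the log2 scale and the y axis lists the 23 collagen genes kept, coloured by class, with points for the difference and lines for the 95% interval of limma. Points run from -1.08 for Col3a1 to 0.039 for Col13a1, and 21 of the 23 lie left of 0.

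Heterozygous mouse 4 stood apart from its group across the collagen genes. It was the highest heterozygous mouse for 21 of the 23 genes and lay above the wildtype mean for 18 of them. Mouse 4 was singled out by these same collagen values, so leaving it out had to widen most collagen differences. The shares of all genes or probe sets given beside counts without it are therefore no like background. In 10 genes read by their brightest probe set, 5 fibrillar, 1 basement membrane and 4 other, the other 4 heterozygous mice lay below every wildtype mouse. They did so in 1.3% of all genes. Among wildtype mice, mice 2 and 4 lay above the wildtype mean for 19 and 18 of the 23 genes, and mouse 1 for 1. Without heterozygous mouse 4 the difference of Col3a1 was -1.37, that of Col1a2 -1.36, that of Col6a1 -1.07, that of Col6a2 -1.11, that of Col14a1 -1.06, that of Col4a5 -0.83 and that of Col4a2 -0.40, and all 23 genes lay lower. The fibrillar median was then -0.91, the basement membrane median -0.42 and the median of other types -0.37. At an unadjusted p under 0.05, 22 of 33 collagen probe sets were lower without mouse 4, against 2.64% of all probe sets, and still 0 of all 18567 (0%) passed the adjusted threshold, with the adjusted p of Col3a1 at 0.217. Every other mouse that was left out lowered or raised this count of 12 as well: it was 5 without heterozygous mouse 1 (1.1% of all probe sets in the same fit), 6 without heterozygous mouse 2 (1.24%), 6 without heterozygous mouse 3 (0.819%) and 7 without heterozygous mouse 5 (2%). It was 11 without wildtype mouse 1 (1.72%), 6 without wildtype mouse 2 (1.49%), 9 without wildtype mouse 3 (1.15%), 5 without wildtype mouse 4 (1.14%) and 14 without wildtype mouse 5 (2.14%). Without both heterozygous mice with high lymphocyte values, mice 2 and 5, it was 3 (1.66% of all probe sets), and the medians were -0.53 for fibrillar, -0.26 for basement membrane and -0.20 for other genes.

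Markers of the cells that make collagen lay lower in heterozygous islets too. All 8 measured fibroblast genes of 10 listed lay lower, 7 at an unadjusted p under 0.05 (1.86% of all genes) and 0 past limma's adjusted threshold. Their median difference was -0.70, and the mean over the list ran from 7.89 to 9.07 in heterozygous mice and from 8.78 to 9.57 in wildtype mice. Pdgfra, a receptor of fibroblasts, differed by -0.78 (SE 0.24) and the proteoglycan gene Dcn by -0.64 (SE 0.19). These genes and the mural genes that follow were named after their values were seen. Mfap5 and Twist2 were not above the floor. All 9 measured mural cell genes of 11 listed lay lower (median -0.38, from -1.01 to -0.031), 0 of them at an unadjusted p under 0.05. Of all genes tested, 45.6% lay lower. Mural list means ran from 7.09 to 8.47 in heterozygous mice and from 7.81 to 8.40 in wildtype mice. The smooth muscle genes Tagln and Acta2 differed by -1.01 (SE 0.62) and -0.87 (SE 0.55), the pericyte gene Pdgfrb by -0.15 (SE 0.21), and Des and Cnn1 were not above the floor. Of 9 endothelial genes of 10 listed, 8 lay lower (median -0.39), 2 at an unadjusted p under 0.05 (1.86% of all genes). These 2 were Egfl7 (-0.61, SE 0.24) and Esam (-0.53, SE 0.17), while Kdr (0.00012, SE 0.11) and Flt1 (-0.0035, SE 0.16) hardly differed. The endothelial genes were also named after their values were seen. Endothelial list means ran from 6.70 to 7.37 in heterozygous mice and from 7.22 to 7.72 in wildtype mice, and Pecam1 was not above the floor. Of 7 Schwann cell genes, 2 were kept, 1 lower and 1 higher (median -0.019), and both lay near the floor. Gfap differed by 0.014 (SE 0.26) and Cdh19 by -0.052 (SE 0.46), while Sox10, S100b and Ngfr were not above the floor. The part of these cells in the collagen values was not tested. Acinar genes had list means of 14.3 to 15.01 in heterozygous mice and 14.7 to 14.98 in wildtype mice, with a median difference of -0.039, and 6 duct genes had 9.12 to 9.73 in heterozygous mice and 9.48 to 9.99 in wildtype mice (median -0.074). In the 6 macrophage genes 5 lay lower (median -0.38), 2 at an unadjusted p under 0.05 (1.86% of all genes). Macrophage list means ran from 6.43 to 7.31 in heterozygous mice and from 7.09 to 7.51 in wildtype mice. All 6 lymphocyte genes lay higher in heterozygous islets (median 0.41), 0 of them at an unadjusted p under 0.05, with list means of 5.14 to 7.13 in heterozygous mice and 5.33 to 5.82 in wildtype mice.

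**Figure D3:**
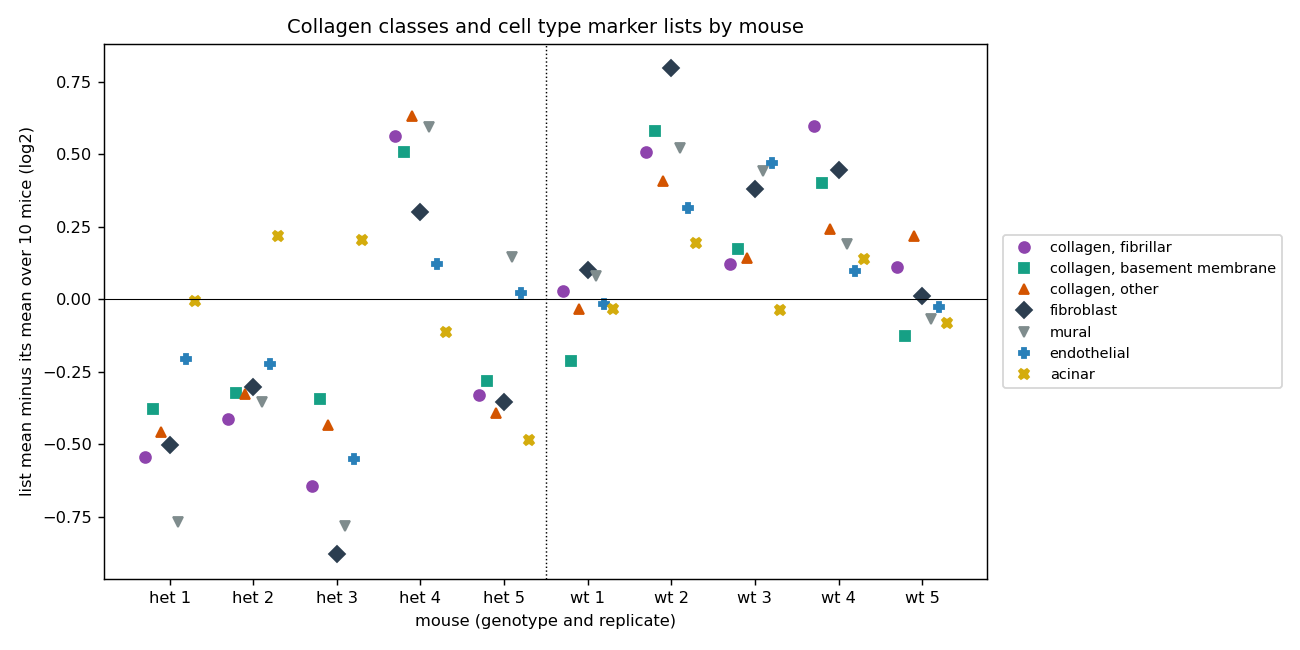
For each mouse on the x axis (heterozygous 1 to 5, then wildtype 1 to 5), symbols give the mean of each collagen class and of 4 marker lists, minus that list's mean over the 10 mice, on the log2 scale. The collagen and fibroblast symbols of heterozygous mice 1, 2, 3 and 5 lie below 0 and those of heterozygous mouse 4 lie above it, while the acinar symbols follow another order.

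Over the 10 mice most connective tissue collagens varied together. Col3a1 and Col6a1 had r = 0.949 (permutation p = 0.00014, adjusted 0.00156; Spearman rho = 0.903, permutation p = 0.00066, adjusted 0.00396), and r was 0.910 without the 2 mice farthest from the Col3a1 median and 0.938 on deviations from the genotype means. Col1a1 and Col1a2 had r = 0.883 (permutation p = 0.00079, adjusted 0.00316; rho = 0.891, permutation p = 0.00105, adjusted 0.0042), with r = 0.843 without 2 mice and 0.910 on deviations. Col3a1 followed the fibroblast gene Dcn (r = 0.886, permutation p = 0.00026, adjusted 0.00156; rho = 0.939, permutation p = 0.00019, adjusted 0.00228), with r = 0.763 without 2 mice and 0.754 on deviations. With the acinar gene Cpa1 it had r = 0.0088 (permutation p = 0.982, adjusted 0.982; rho = 0.0667, permutation p = 0.867, adjusted 0.867) and r = 0.350 without 2 mice. Within genotypes this r was 0.51 in wildtype and -0.17 in heterozygous mice. Cpa1 ran only from 16.31 to 16.69 in heterozygous and from 16.48 to 16.69 in wildtype mice, where the highest value on the arrays was 17.58. So narrow a span leaves little room to see a relation. In all, 12 pairs of genes were examined and the p-values were adjusted over them with 100000 permutations each.

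Fibrillar and basement membrane genes also varied together. Col3a1 and Col4a1 had r = 0.854 (permutation p = 0.00418, adjusted 0.00717; rho = 0.794, permutation p = 0.00813, adjusted 0.0163), with r = 0.745 without 2 mice and 0.755 on deviations from the genotype means. For this pair r was 0.98 within heterozygous mice but 0.43 within wildtype mice, and 0.841 without heterozygous mouse 4. Col4a1 and the endothelial gene Cdh5 had r = 0.818 (permutation p = 0.00295, adjusted 0.00706; rho = 0.855, permutation p = 0.00284, adjusted 0.00734), with r = 0.690 without 2 mice and 0.730 on deviations. Col3a1 and Pdgfrb had r = 0.761 (permutation p = 0.0139, adjusted 0.0184; rho = 0.782, permutation p = 0.0109, adjusted 0.0187), with r = 0.569 without 2 mice and 0.896 on deviations. Col4a1 and Pdgfrb had r = 0.797 (permutation p = 0.00807, adjusted 0.0121; rho = 0.758, permutation p = 0.0149, adjusted 0.0223), with r = 0.865 without 2 mice. Col18a1 and Col4a1 had r = 0.686 (permutation p = 0.0273, adjusted 0.0298), but their rank correlation missed the threshold (rho = 0.648, permutation p = 0.0483, adjusted 0.0527).

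Of the 22 other collagen genes, 15 had r over 0.7 with Col3a1, a level reached by 3.63% of all 10537 other genes. The median r between collagen genes was 0.71 over 28 pairs of fibrillar genes, 0.83 over 14 pairs of basement membrane genes (without Col4a1 with Col4a2), 0.81 over 48 pairs between these classes and 0.43 over 36 pairs of other types. The genes outside this common pattern were Col2a1, Col27a1, Col7a1, Col13a1, Col8a1 and Col20a1, with r between -0.18 and 0.42 to Col3a1, and Col6a3 lay between, at 0.64. Among genes that are no collagens, those most like Col3a1 over the 10 mice were Lum (r = 0.984), Sparcl1 (0.978), Emp1 (0.968), Htra1 (0.968) and Mxra8 (0.964). Those most like Col4a1 were Myo1c (0.967), Epb41l2 (0.954), Crip2 (0.945), Gja1 (0.945) and Thy1 (0.944). These rankings come from the same 10 arrays and are descriptions only.

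**Figure D4:**
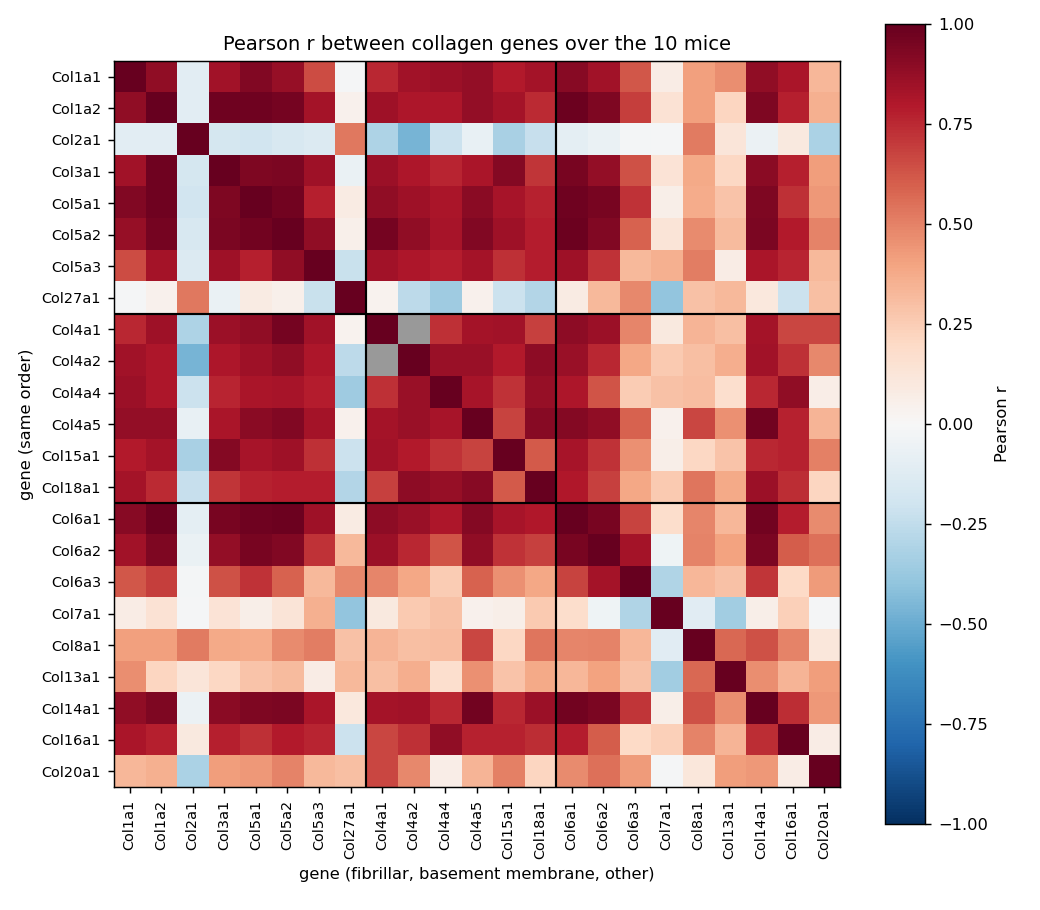
The heat map gives Pearson r over the 10 mice between each pair of the 23 collagen genes kept (rows and columns in the same order, black lines between fibrillar, basement membrane and other types), in red for positive and blue for negative r, with the pair of Col4a1 and Col4a2 left grey. A block of high r joins most fibrillar and all basement membrane genes with Col6a1, Col6a2, Col14a1 and Col16a1, while the rows of Col2a1, Col27a1 and Col7a1 are pale or blue.

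**Figure D5:**
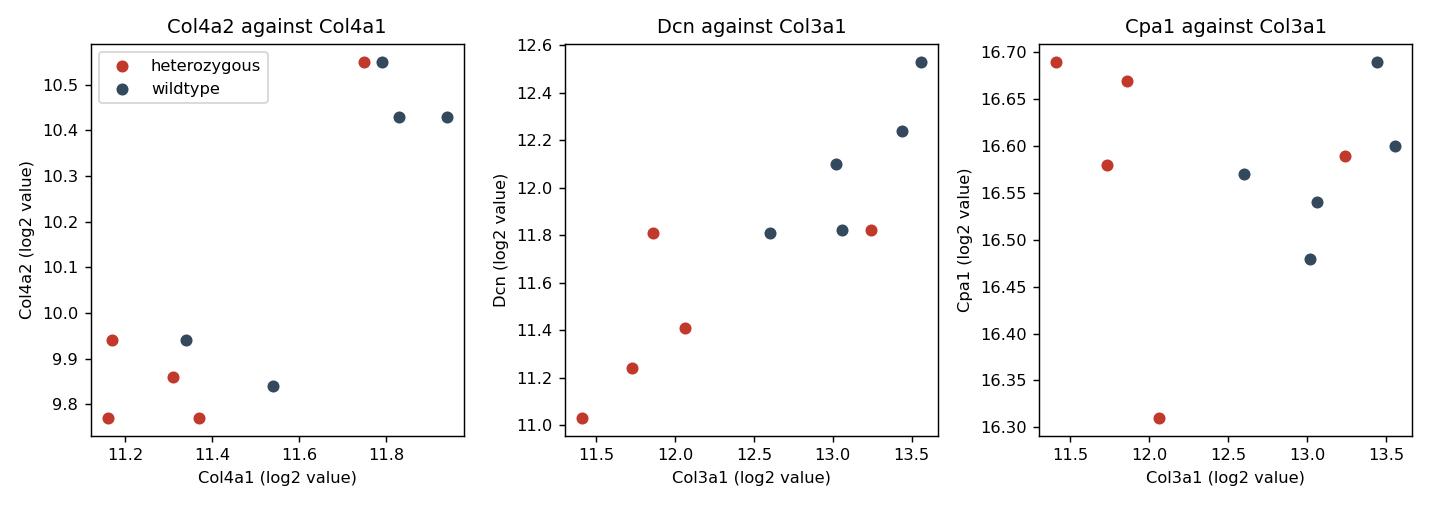
Each panel sets the log2 values of a pair of genes against each other, with a point per mouse (red heterozygous, dark wildtype). Col4a2 falls into 2 ranges that Col4a1 shares, Dcn rises with Col3a1, and Cpa1 shows no such relation (r = 0.0088).

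Genes that make, modify and assemble collagen had a smaller median difference than the chains themselves, and the gap between these medians was not tested. Of 30 listed genes, 15 were kept, of which 14 lay lower and 1 higher (median -0.19), with 0 past the adjusted threshold by limma. At an unadjusted p under 0.05 there were 0, where 1.86% of all genes lay lower. Loxl1, an enzyme that cross-links elastic fibres and collagen, stood at 4.57, 4.10, 4.40, 6.02 and 4.24 in heterozygous mice and at 5.32, 6.49, 5.15, 5.87 and 4.84 in wildtype mice (-0.87, SE 0.40). Its heterozygous values other than that of mouse 4 lay close to the floor of 4. Sparc, a collagen-binding protein needed for basement membranes, stood at 10.20, 10.48, 10.10, 11.51 and 10.74 in heterozygous mice and at 10.92, 11.53, 11.46, 11.25 and 10.56 in wildtype mice (-0.54, SE 0.27). In both genes heterozygous mouse 4 lay above the wildtype mean and the other 4 below it. Serpinh1, the collagen chaperone HSP47, stood at 8.90, 9.18, 8.96, 9.42 and 8.72 in heterozygous mice and at 9.28, 9.43, 9.58, 9.74 and 8.81 in wildtype mice (-0.33, SE 0.19). Over the 10 mice Serpinh1 and Col3a1 had r = 0.759 (permutation p = 0.0153, adjusted 0.0184; rho = 0.709, permutation p = 0.0266, adjusted 0.0319) and r = 0.732 without 2 mice.

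Colgalt1, which adds sugars to collagen chains, stood at 8.42, 8.75, 8.5, 9.36 and 8.82 in heterozygous mice and at 8.96, 9.17, 9.24, 8.82 and 9.15 in wildtype mice (-0.30, SE 0.17). Heterozygous mouse 4 was the highest of all 10 mice, and 3 of the others lay below every wildtype mouse. Pcolce, an enhancer of procollagen cleavage, differed by -0.50 (SE 0.32). Smaller differences stood in P4hb, at -0.059 (SE 0.11), and Ppib, at -0.095 (SE 0.12), which are general folding factors of the secretory pathway. Mia3 differed by 0.026 (SE 0.095). The collagen-modifying genes P4ha2 and Plod3 differed by -0.037 (SE 0.17) and -0.031 (SE 0.10). P4ha1, a subunit of the prolyl hydroxylase that stabilises the helix, stood at 6.94, 6.56, 6.34, 6.84 and 7.5 in heterozygous mice and at 6.87, 6.62, 7.31, 7.09 and 6.86 in wildtype mice (-0.12, SE 0.21), with overlapping groups. Pcolce, P4hb, Ppib, Mia3, P4ha2 and Plod3 were named after their values were seen. Lox, the main cross-linking enzyme, was not above the floor.

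Of 9 listed collagen receptors 5 were kept, of which 3 lay lower and 2 higher (median -0.11), with 0 past the adjusted threshold by limma. At an unadjusted p under 0.05, 1 of the 5 lay lower, against 1.86% of all genes. Ddr2, a receptor kinase of connective tissue cells that binds fibrillar collagen, stood at 6.14, 6.38, 5.92, 6.69 and 6.43 in heterozygous mice and at 6.47, 7.04, 7.05, 7.01 and 6.37 in wildtype mice (-0.48, SE 0.19; exact permutation p = 0.0556). Mrc2, which takes up collagen for breakdown, stood at 4.96, 4.26, 4.65, 5.69 and 3.44 in heterozygous mice and at 5.61, 5.14, 5.14, 5.15 and 5.41 in wildtype mice (-0.68, SE 0.34). Its value in heterozygous mouse 5 lay below the floor of 4. Heterozygous mouse 4 was the highest of all 10 mice for Mrc2 and mouse 5 the lowest, and the difference was -0.39 without mouse 5 and -0.18 without mice 2 and 5. The epithelial receptor kinase Ddr1 differed by 0.048 (SE 0.21), with overlapping groups. The integrin subunit gene Itgb1 stood at 7.74, 7.4, 7.79, 7.89 and 7.93 in heterozygous mice and at 7.74, 8.26, 7.79, 7.79 and 7.69 in wildtype mice (-0.11, SE 0.14), and without wildtype mouse 2 the difference was -0.0038. Itga1, whose product pairs with it to bind collagen, stood at 5.47, 5.04, 5.38, 6.09 and 5.65 in heterozygous mice and at 5.14, 6.23, 5.11, 5.59 and 5.14 in wildtype mice (0.085, SE 0.25).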

How the data were processed

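Expression was measured on 1 mouse expression array with Affymetrix control probe sets per mouse, from RNA of about 100 islets amplified over 2 cycles from 100 ng, per the labels' protocols. The deposited values are log2 values of GCRMA, per the submitters' processing notes, and the log2 scale was read from the values (0.654 to 17.58). GCRMA pulls dim probe sets to a common low value and normalizes arrays to one another. Probe sets were named through the platform annotation, where 34945 carry 1 symbol, 932 several and 9160 none, and the 82 member symbols matched RefSeq. No genome build is stated for the values.

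Probe sets above 4 on at least 5 arrays were fitted with limma 3.58.1 in R 4.3.3 (lmFit, eBayes, no covariate, two-sided), with Benjamini-Hochberg adjustment over all probe sets kept and a threshold of 0.05. A gene is represented by its probe set with the highest mean. The fit was tested on simulated data with known changes. Single values were compared by exact permutation over 252 assignments. Every kept member may be named; values per mouse were given for those with the smallest p of each class and for 7 fixed genes, and from the synthesis and receptor lists for the 4 with the smallest p each and for a few fixed ones. The members and lists were chosen with earlier results of these data known. The number of arrays limits the precision. Alternatives were the filter, normalization, variance model, array weights, a replicate block, the threshold, the probe sets per gene and leaving out mice. Figures used matplotlib 3.10.9 in Python 3.11.15.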

Additional observations from a re-analysis of the deposited data

Results flagged for a closer look

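Heterozygous mouse 4 stood far above the other 4 heterozygous mice, by the gap to the next mouse over the range of its group, in 6 collagen genes and 1 cross-linking gene. Its values were 8.93 for Col1a1 (next 7.26), 5.39 for Col4a4 (next 4.93), 10.55 for Col4a2 (next 9.94), 10.5 for Col6a1 (next 9.09), 9.27 for Col14a1 (next 7.60), 7.54 for Col18a1 (next 6.53) and 6.02 for Loxl1 (next 4.57). Wildtype mouse 3 stood apart for Col20a1 at 4.83 (next 4.23), close to the floor of 4, and wildtype mouse 2 for Itgb1 at 8.26 (next 7.79). These are 9 flags over 66 groups of 5 mice, where chance flags about 1 in 20 groups, and the collagen genes are not independent of one another.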

How the results depend on the processing

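Over the alternatives run, 0 probe sets were called throughout, with a lowest adjusted p by limma between 0.217 (without heterozygous mouse 4) and 0.9999, and 760 at an unadjusted p under 0.05 in the reported fit. The count of collagen genes lower was 21 of 23, 19 to 23 when single mice were left out, 16 of 17 with a floor of 6 and 30 of 42 without a filter. Leaving out single mice gave medians of -0.91 to -0.45 for fibrillar, -0.42 to -0.23 for basement membrane, -0.52 to -0.20 for other collagen genes and -0.25 to -0.13 for synthesis and processing genes, with the fibrillar -0.91 without heterozygous mouse 4 and the -0.20 of other types without heterozygous mouse 5. Without a filter the synthesis median was -0.086. The median of other collagen genes moved to -0.026 without a filter, because 14 genes near background then enter. When single mice were left out, directions turned for Col18a1 (-0.40 to 0.011, without wildtype mouse 2), Col7a1 (-0.65 to 0.0093, without heterozygous mouse 5), P4ha1 (-0.28 to 0.0069, without heterozygous mouse 3) and Itga1 (-0.056, without heterozygous mouse 4, to 0.28), and the cause was not tested. Whether the replicate numbers pair the mice is not stated in the labels. Same-numbered mice correlated at r = 0.11, -0.043, -0.28, 0.032 and 0.11 in their deviations, and only number 1 matched best with its own number. Such correlations cannot settle whether the mice were paired. With the replicate block 0 collagen probe sets were called, the fibrillar median stayed at -0.58, and 18 collagen probe sets had an unadjusted p under 0.05 and lay lower (1.7% of all probe sets), against 12 (1.52%) without it. Leaving out heterozygous mice 2 and 5 together was chosen after seeing the data and gave 22 of 23 genes lower. Dim probe sets limit what can be said of the 19 collagen genes below the floor, and 5 mice per genotype leave 95% intervals such as 28.3% to 87.4% of wildtype for Col1a2.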
